A study of Rattus norvegicus with 24 samples.

Results

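Oligodendrocyte precursor and lineage factors are the genes by which precursor cells of the spinal cord receive growth signals, are held in the lineage and are taken towards myelin formation, and 7 were listed here: Pdgfra, C1ql1, Nkx2-2, Sox10, Olig1, Olig2 and Gpr17. A gene was taken as measured where at least 1 probe set of the rat array carried its symbol and no other, and where there were several the one with the highest mean over all arrays was used. Of the 7 genes 6 were measured, by 7 probe sets, among 14218 genes so measured in all. No probe set carried the symbol Gpr17 alone, and this gene was not analysed here.

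Adult oligodendrocyte precursor cells lie throughout the cord, divide in response to platelet-derived growth factor AA through its receptor PDGFRA, and are the main source of new oligodendrocytes after loss of myelin. The transcription factors OLIG2 and SOX10 are present along the whole lineage, OLIG1 is needed for remyelination, and NKX2-2 is high in cells that leave the precursor state and is switched off in mature oligodendrocytes. Pdgfra is also expressed by fibroblasts, and Sox10 by Schwann cells, so neither is a mark of one cell type in whole tissue.

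The cord of female Wistar rats was taken around the epicenter, 5 mm in length, after laminectomy at T6 to T8. The injured rats had a 35 g clip closed on the cord at T7 for 1 min and were killed 1, 3, 7, 14 or 56 days later (56 days is the 8-week group), while the sham rats had the laminectomy without the clip. There were 4 arrays for each of the 5 injured groups and 4 for sham, 24 in all, and the same 4 sham arrays serve every comparison with sham. No genetic alteration or drug is named in the labels, the time between sham surgery and collection is not stated in them, and the arrays of a group are taken as separate rats.

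The values are log2 expression levels, so a difference of 1 is a doubling, and levels of different probe sets are not set against each other. The 27 probe sets with no rat target averaged between 2.62 and 2.91 over the arrays and reached 3.5 at most, which shows where background lies. Arrays of the same group correlated at r = 0.973 to 0.996 over all probe sets. The sham arrays had the neuronal and myelin genes of cord tissue, with means of 14.31 for Snap25, a synaptic protein, and 15.36 for Mbp, a major myelin protein. The day 3 arrays stood apart from those of the other injured groups: 2 of 12 neuron markers were lower than in sham on day 3, against 12 of 12 on days 1, 7 and 14 and 10 of 12 on day 56. By the methods the arrays of one time point were normalized apart from the others, so normalization and day cannot be told apart, and where a call against sham changed without the day 3 arrays in the fit, both values are given. The 3' minus 5' signal of beta-actin, a measure of RNA integrity and labelling, was 0.889 to 1.05 on day 1, 1.1 to 1.21 on day 3, 0.954 to 1.25 on day 7, 1.16 to 1.24 on day 14 and 1.18 to 1.33 on day 56, against 1.29 to 1.62 in sham, and its part in the results was not tested.

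The genes lie at separate places in the rat genome, apart from the Olig pair. In RefSeq's annotation of GRCr8, Pdgfra is at chr14:33360027-33408604, C1ql1 at chr10:88402219-88409649, Nkx2-2 at chr3:155072621-155083699 and Sox10 at chr7:112605721-112615097. Olig2 (chr11:43961585-43964961) and Olig1 (chr11:44000450-44002592) are neighbours, 35488 bases apart with 0 genes starting between them. Promoter sequences, from 250 bases before to 50 bases after the start site, were matched for 3 of the 6 measured genes (Pdgfra, Nkx2-2 and Olig2). Those of Pdgfra and Nkx2-2 are shown because these 2 genes, both far above background, passed the test on day 56 in opposite directions. Both lie on the minus strand, at chr14:33408467-33408766 for Pdgfra and chr3:155075573-155075872 for Nkx2-2, and are written 5′ to 3′ in the direction of transcription. The Nkx2-2 stretch lies inside the gene's span given above and not at its outer end, so other start sites of this gene were not searched. Capitals mark the E-box CANNTG, the core that OLIG factors and other basic helix-loop-helix proteins can bind.
Pdgfra: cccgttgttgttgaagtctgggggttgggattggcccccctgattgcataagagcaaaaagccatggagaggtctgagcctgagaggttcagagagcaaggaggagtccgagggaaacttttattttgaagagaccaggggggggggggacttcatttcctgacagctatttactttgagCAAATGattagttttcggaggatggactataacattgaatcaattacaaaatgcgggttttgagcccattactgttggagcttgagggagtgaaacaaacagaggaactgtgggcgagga
Nkx2-2: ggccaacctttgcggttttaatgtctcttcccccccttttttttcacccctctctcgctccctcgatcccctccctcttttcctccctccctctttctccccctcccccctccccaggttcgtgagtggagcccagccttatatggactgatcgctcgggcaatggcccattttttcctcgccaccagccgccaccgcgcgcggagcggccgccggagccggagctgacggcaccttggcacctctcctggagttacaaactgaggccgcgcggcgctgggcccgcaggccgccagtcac
The Pdgfra promoter held 1 E-box, CAAATG, whose first base is at -70 from the start site, and those of Nkx2-2 and Olig2 held 0. An E-box stands in 72.1% of the 33469 promoters of the same length. On both strands the SOX motifs ACAAAG (18.8% of promoters) and ACAATG (13.2%) were in none of the 3, and a match is a description of letters only.

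Pdgfra encodes the receptor through which precursor cells are driven to divide. Its levels on the 4 sham arrays were 9.95, 10.15, 10.15 and 10.48, and on day 1 they were 10.92, 11.21, 10.54 and 11.33. On day 3 they were 9.70, 7.61, 8.43 and 9.00, the only group in which every array was under the lowest sham array. On day 7 they were 11.13, 11.35, 10.57 and 10.36, on day 14 they were 10.74, 10.90, 11.84 and 10.90, and on day 56 they were 11.04, 11.20, 10.73 and 11.70. On days 1, 14 and 56 all 4 arrays were above the highest sham array, and on day 7 it was 3 of 4.

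Pdgfra thus fell on day 3 and was above sham by the end. Against sham, with limma fitted to all 6 groups and p-values adjusted by Benjamini-Hochberg over 20832 probe sets, Pdgfra fell by 1.50 ± 0.35 on day 3 (SE, adjusted p = 0.00226) and rose by 0.98 ± 0.35 on day 56 (adjusted p = 0.042), which is 1.98-fold. On the other days Pdgfra did not pass 0.05: its differences from sham were 0.82 on day 1 (adjusted p = 0.0691), 0.67 on day 7 (adjusted p = 0.114) and 0.91 on day 14 (adjusted p = 0.0607). With the day 3 arrays out of the limma fit the same differences had adjusted p = 0.0218, 0.0484 and 0.0189. The dip on day 3 was also seen against its neighbours in time: Pdgfra fell by 2.31 on day 3 against day 1 (adjusted p = 6.46e-05) and rose by 2.16 on day 7 against day 3 (adjusted p = 0.000113). Ordered by mean level, Pdgfra ran day 56, day 14, day 1, day 7, sham, day 3, and sham and day 3 were the only neighbours that differed. From day 14 to day 56 the difference was 0.07, with a 95% interval of -0.67 to 0.81. In whole tissue, fewer cells of a type and less RNA per cell cannot be told apart, here and for every gene that follows.

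Markers of fibroblasts changed on each of the 5 days. Of 12 fibroblast markers, 7, 8 and 9 were higher and 1 lower than in sham on days 1, 7 and 14. Their median changes were 2.38, 2.68 and 2.42. On those days Pdgfra differed from sham by 0.82, 0.67 and 0.91, and passed only without the day 3 arrays or under some other alternatives. On day 3, 6 were lower and 3 higher, with a median change of -1.85 (-0.0437 over all genes), and the mean of the 12 on an array was 6.42 to 8.59 on day 3, a range that takes in the 7.56 to 8.38 of sham. On day 56, 6 were higher and 1 lower, with a median of 1.87 and array means of 9.09 to 10.1. The 3 genes whose levels followed Pdgfra most closely over the 24 arrays were Colec12, a scavenger receptor of the collectin family (Pearson r = 0.978), Dcn, the proteoglycan decorin (r = 0.963), and Flrt2, a membrane protein with leucine-rich repeats (r = 0.953). Taken as deviations from the group means, which leaves out the time course, these were r = 0.909, 0.898 and 0.847. The points share the same arrays and their normalization, and Dcn is itself on the fibroblast list. The part of fibroblasts in the Pdgfra values was not tested.

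C1ql1 encodes a secreted protein of the C1q family that is found in precursor cells of the lineage as well as in some neurons. Its levels on the sham arrays were 8.92, 9.59, 9.20 and 9.32, on day 1 they were 9.02, 8.62, 9.29 and 7.67, and on day 3 they were 7.91, 5.34, 7.31 and 8.13. Later values were higher, with 9.63, 9.41, 9.63 and 10.26 on day 7, 9.76, 10.41, 10.19 and 10.46 on day 14, and 10.53, 10.29, 10.30 and 10.91 on day 56. The arrays of day 3 were all under those of sham, those of days 14 and 56 all above, and those of days 1 and 7 overlapped sham. Day 3 replicate 2 was the lowest of all 24 arrays in C1ql1, as it was in Pdgfra.

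C1ql1 fell by 2.08 ± 0.44 on day 3 against sham (SE, limma adjusted p = 0.000943) and rose by 1.25 ± 0.44 on day 56 (adjusted p = 0.0398). The differences of -0.61 on day 1, 0.47 on day 7 and 0.95 on day 14 did not pass (adjusted p = 0.322, 0.373 and 0.128), although on day 14 the arrays did not overlap those of sham. Without the day 3 arrays in the fit, C1ql1 on day 14 had adjusted p = 0.0211. C1ql1 fell by 1.47 on day 3 against day 1 (adjusted p = 0.0155), rose by 2.56 on day 7 against day 3 (adjusted p = 0.000214), and was 1.86 higher on day 56 than on day 1 (adjusted p = 0.00353). In the order day 56, day 14, day 7, sham, day 1, day 3, only day 1 and day 3 differed as neighbours. The drop on day 3 against day 1 was lost without day 1 replicate 3 (adjusted p = 0.0526).

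The C1ql1 pattern was closest to that of Fabp7, a fatty acid binding protein of radial glia, astrocytes and precursor cells (r = 0.931), Lcat, which esterifies cholesterol (r = 0.918), and Ptn, the growth factor pleiotrophin (r = 0.914). Pdgfra and C1ql1 correlated at r = 0.77 over the 24 arrays and at r = 0.392 in deviations from the group means. Of 12 neuron markers 12, 2, 12, 12 and 10 were lower than in sham on days 1, 3, 7, 14 and 56, with median changes of -3.92, -0.93, -2.81, -2.80 and -2.18, and their part in the C1ql1 values was not tested.

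**Figure D1:**
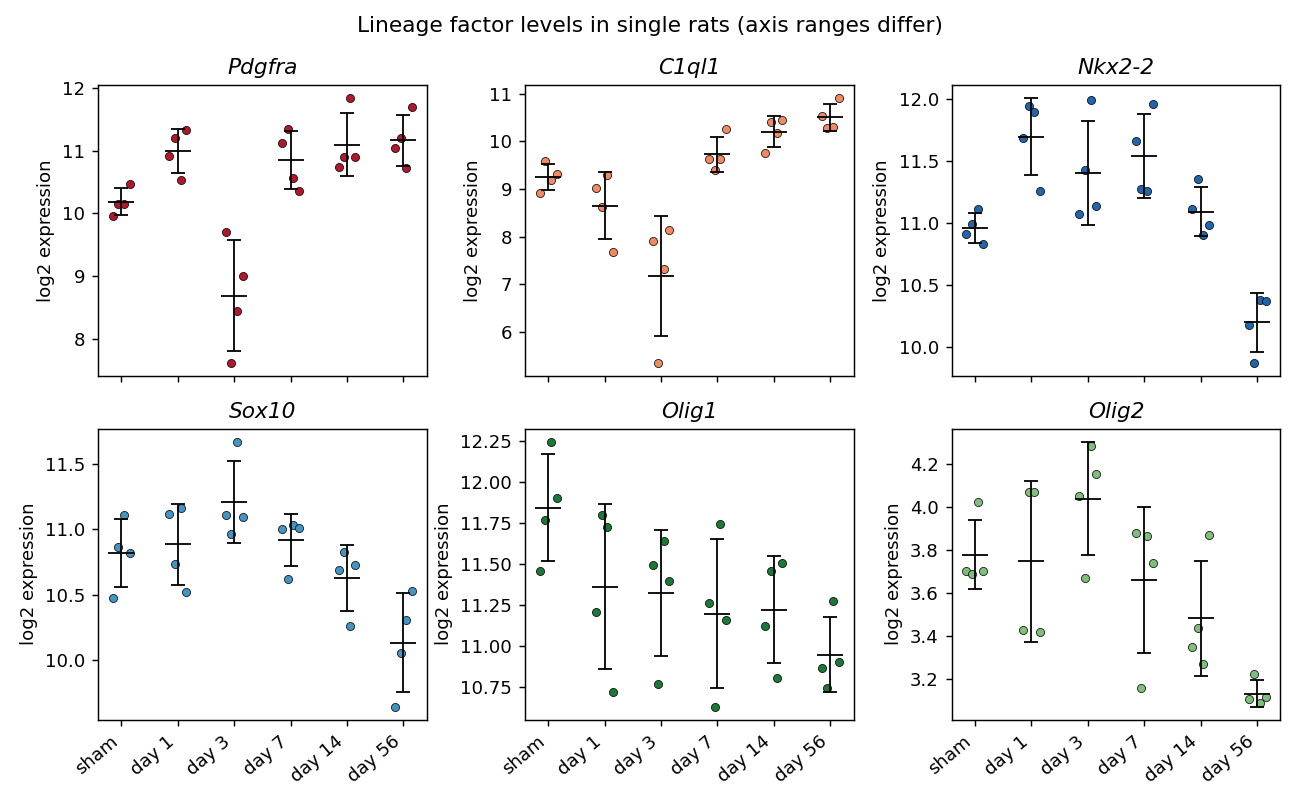
Log2 expression level of the 6 measured genes (1 panel each, own vertical scale) on every array, by group from sham to day 56 after injury; points are arrays and bars are group means with SD (n = 4). Pdgfra and C1ql1 drop on day 3 and lie above sham on day 56, while Nkx2-2, Sox10, Olig1 and Olig2 are lowest on day 56.

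Nkx2-2 encodes a homeodomain factor of the step at which precursors begin to differentiate. On the sham arrays Nkx2-2 had 10.91, 10.99, 11.11 and 10.83, on day 1 it had 11.69, 11.95, 11.90 and 11.26, and on day 3 it had 11.07, 11.43, 11.99 and 11.14. It then had 11.67, 11.28, 11.26 and 11.96 on day 7, 11.12, 11.36, 10.91 and 10.99 on day 14, and 10.18, 9.87, 10.38 and 10.37 on day 56. All arrays of days 1 and 7 lay above all sham arrays, and all those of day 56 lay below them.

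Nkx2-2 was the gene of the set that rose early and fell late. Against sham it rose by 0.74 ± 0.20 on day 1 (SE, limma adjusted p = 0.00421) and by 0.58 on day 7 (adjusted p = 0.0246), and it fell by 0.76 on day 56 (adjusted p = 0.00594). The differences of 0.45 on day 3 and 0.13 on day 14 did not pass (adjusted p = 0.0821 and 0.632). Compared directly, the difference of Nkx2-2 on day 56 was -1.50 from day 1 (adjusted p = 1.48e-05) and -1.34 from day 7 (adjusted p = 0.000443). Its difference from day 14 was -0.89 (95% interval -1.31 to -0.48) and did not pass (adjusted p = 0.0706). In the order day 1, day 7, day 3, day 14, sham, day 56, sham and day 56 were the only neighbours that differed. The rise on day 7 was lost without sham replicate 1 (adjusted p = 0.0555), day 7 replicate 1 (0.0645) or day 7 replicate 4 (0.0835), whereas the rise on day 1 and the fall on day 56 passed with each array left out in turn. Levels of Gltp, a glycolipid transfer protein (r = 0.878), Tgfb3, a transforming growth factor (r = 0.863), and Chst2, a sulfotransferase (r = 0.863), were most like those of Nkx2-2.

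Sox10 encodes a factor needed for the survival and myelination of oligodendrocytes. Sox10 had 10.48, 10.87, 11.11 and 10.82 in sham, 11.12, 10.74, 11.17 and 10.52 on day 1, and 11.11, 10.96, 11.67 and 11.10 on day 3. On day 7 it had 11.00, 10.62, 11.03 and 11.01, on day 14 it had 10.69, 10.83, 10.26 and 10.73, and on day 56 it had 9.64, 10.06, 10.30 and 10.53. Every injured group overlapped sham, on day 56 through the highest injured and the lowest sham array only.

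Sox10 passed the test against sham only at 8 weeks. It fell by 0.68 ± 0.20 on day 56 against sham (SE, limma adjusted p = 0.0132), and its differences on days 1, 3, 7 and 14 were 0.07, 0.39, 0.10 and -0.19 (adjusted p = 0.942, 0.118, 0.698 and 0.489). The 95% intervals of these 4 differences ran between -0.61 and 0.81 at their outer ends. On day 56 Sox10 also fell by 0.75 against day 1 (adjusted p = 0.00769) and by 0.78 against day 7 (adjusted p = 0.0258). No neighbouring groups passed the test in the order day 3, day 7, day 1, sham, day 14, day 56. The fall on day 56 was lost without sham replicate 3 (adjusted p = 0.0513) or day 56 replicate 1 (0.0612). It was also lost with the ordinary test, which used only the groups compared and their pooled spread (Benjamini-Hochberg adjusted p = 0.0823). That test is not the limma test named in the methods. The difference from day 7 was lost in 4 of the 24 fits that left out 1 array. Of 8 Schwann cell markers measured, 3 were higher and 0 lower than in sham on day 56, with array means of 9.04 to 9.73 on day 56, against 8.41 to 8.68 in sham, and their part in the Sox10 values was not tested.

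Olig1 encodes a basic helix-loop-helix factor of the lineage. Its levels were 11.46, 11.77, 12.25 and 11.90 in sham, 11.21, 11.80, 11.73 and 10.72 on day 1, and 11.50, 10.77, 11.64 and 11.40 on day 3. On day 7 they were 11.27, 10.63, 11.74 and 11.16, on day 14 they were 11.12, 11.46, 10.81 and 11.51, and on day 56 they were 10.87, 10.74, 11.27 and 10.91. Mean Olig1 was below sham in all 5 injured groups, and on day 56 no injured array reached the lowest sham array.

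Olig1 fell by 0.90 ± 0.26 on day 56 against sham (SE, limma adjusted p = 0.0131), to 0.537 of the sham level. On day 7 it fell by 0.65 (adjusted p = 0.0475), close to the threshold, and the call was lost in 14 of the 24 fits that left out 1 array, with adjusted p up to 0.162. The differences of -0.48 on day 1, -0.52 on day 3 and -0.62 on day 14 did not pass (adjusted p = 0.158, 0.114 and 0.0872). No neighbouring groups passed the test in the order sham, day 1, day 3, day 14, day 7, day 56. Without sham replicate 3, the highest of the sham arrays in Olig1, the fall on day 56 had adjusted p = 0.0522.

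Olig2 encodes the factor that sets oligodendrocyte identity, but its probe sets were near background here. The one used had 3.70, 3.69, 4.02 and 3.70 in sham, 3.43, 4.07, 4.07 and 3.42 on day 1, and 4.05, 3.67, 4.28 and 4.15 on day 3. It had 3.88, 3.16, 3.86 and 3.74 on day 7, 3.35, 3.44, 3.27 and 3.87 on day 14, and 3.11, 3.22, 3.09 and 3.12 on day 56. All day 56 arrays were under all sham arrays and also under 3.5, the highest value of the probe sets with no target. Olig2 fell by 0.65 ± 0.18 on day 56 (SE, limma adjusted p = 0.0109), a difference between values that start close to background, so its size says little about the size of the change in RNA. On days 1, 3, 7 and 14 the differences were -0.03, 0.26, -0.12 and -0.30 (adjusted p = 0.992, 0.238, 0.602 and 0.264). Against day 1, Olig2 fell by 0.61 on day 56 (adjusted p = 0.0158), a call lost without day 1 replicate 2 (0.0581) or day 1 replicate 3 (0.0569). Its mean levels ran day 3, sham, day 1, day 7, day 14, day 56, and no neighbours passed the test. The arrays of days 14 and 56 did not overlap (limma adjusted p = 0.363). The other Olig2 probe set stayed between 2.20 and 2.51 on all arrays, the level of the probe sets with no target, and differed by -0.01 on day 56 (adjusted p = 0.831). Although at background, it passed the limma test as lower on day 7 against sham (-0.15, adjusted p = 0.00478) and as higher on day 56 against day 7 (0.13, adjusted p = 0.0483) and on day 14 against day 7 (0.17, adjusted p = 0.0113).

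The 6 pairs among the 4 transcription factors correlated over the 24 arrays at r = 0.317 (Olig1 with Nkx2-2) to r = 0.781 (Olig2 with Sox10). In deviations from the group means the same 6 pairs ran between r = 0.373 (Olig2 with Nkx2-2) and r = 0.831 (Olig1 with Olig2), and Sox10 with Nkx2-2, a pair without the dim Olig2 probe set, had r = 0.771 over the arrays and 0.601 in deviations. Pdgfra had r = -0.56 with Olig2 and r = -0.557 with Sox10 over the arrays, but only -0.0931 and -0.216 in deviations. The nearest genes to Sox10 were Pcbp4, an RNA-binding protein (r = 0.895), Rhob, a small GTPase (r = 0.886), and Degs1, a desaturase of ceramide synthesis (r = 0.88). To Olig1 they were Rtn4, which encodes Nogo (r = 0.832), Cdhr2 and Lrrc4b (each at r = 0.825 or more), and to Olig2 they were Gjb1, a connexin of oligodendrocytes (r = 0.871), Agpat4 (r = 0.861) and Cfl2 (r = 0.86). These are descriptions over arrays that share 1 design and 1 normalization per day.

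**Figure D2:**
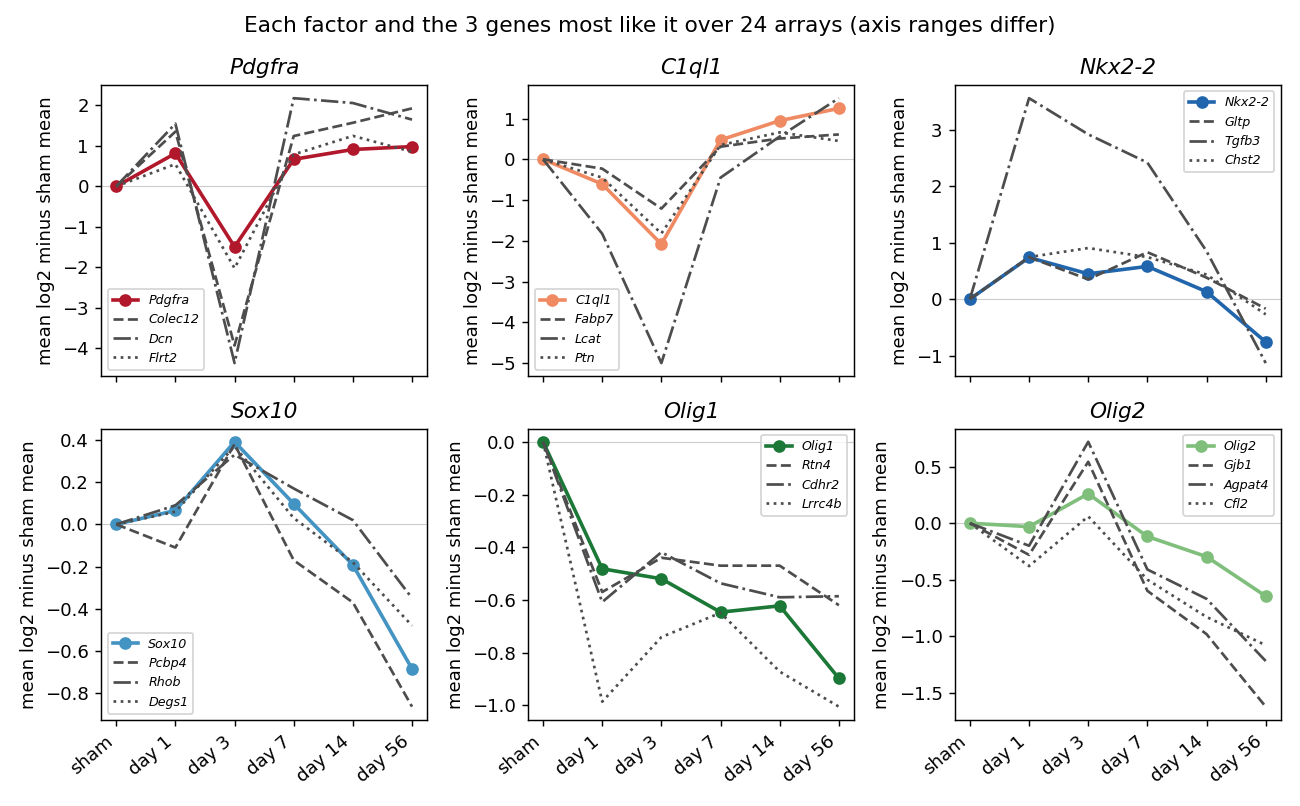
Mean log2 level of each of the 6 measured genes (coloured line, 1 panel each) and of the 3 genes most like it over the 24 arrays (grey lines), as the difference from the sham mean (vertical axis, own scale) from sham to day 56. Colec12, Dcn and Flrt2 drop with Pdgfra on day 3, and the genes nearest to Sox10 and Olig2 decline with them to day 56.

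Day 56 was the time at which all 6 genes passed the test against sham, Olig2 with values near background. Pdgfra and C1ql1 were higher, 2 of 6 where 16.1% of genes were higher, and Nkx2-2, Sox10, Olig1 and Olig2 were lower, 4 of 6 where 15.9% of genes were lower. The arrays of 5 of the 6 did not overlap those of sham, Sox10 being the exception; 18.6% of genes were higher and 17.9% lower without overlap. On day 3 Pdgfra and C1ql1 were lower, 2 of 6 where 16.7% of genes were lower. On day 1 Nkx2-2 was higher, 1 of 6 where 28.9% of genes were higher. On day 7 Nkx2-2 was higher and Olig1 lower, where 23.5% of genes were higher and 30% lower, so the counts on days 1 and 7 were no higher than this background. Arrays of Pdgfra and Nkx2-2 on day 1 lay above all sham arrays without overlap (27.6% of genes did), those of Nkx2-2 on day 7 (20.2% of genes) and those of Pdgfra and C1ql1 on day 14 (19.7% of genes), and those of Pdgfra and C1ql1 on day 3 lay below them (17.3% of genes did). On day 14 none of the 6 passed in limma at an adjusted p under 0.05, where 32.1% of genes did. Of the 6, 3 (Pdgfra, Olig1 and C1ql1) had an unadjusted p under 0.05 in limma. With the ordinary test on the pooled spread of the groups compared, 3 passed at an unadjusted p of at most 0.05.

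The count of 6 on day 56 depended on single arrays. Leaving out 1 array in turn gave between 2 and 6, with 2 when sham replicate 3 was left out and 3 when day 56 replicate 1 was left out. Pdgfra on day 56 was lost without any of 6 arrays (largest adjusted p = 0.139) and C1ql1 without any of 7 (largest 0.11), while Nkx2-2 and Olig2 passed in all 24. The Olig2 values of day 56 all lay under 3.5, the highest value of the probe sets with no target. The other Olig2 probe set did not pass on day 56 (limma adjusted p = 0.831). With the day 3 arrays out of the fit all 6 passed, at adjusted p = 0.00317 to 0.0156.

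**Figure D3:**
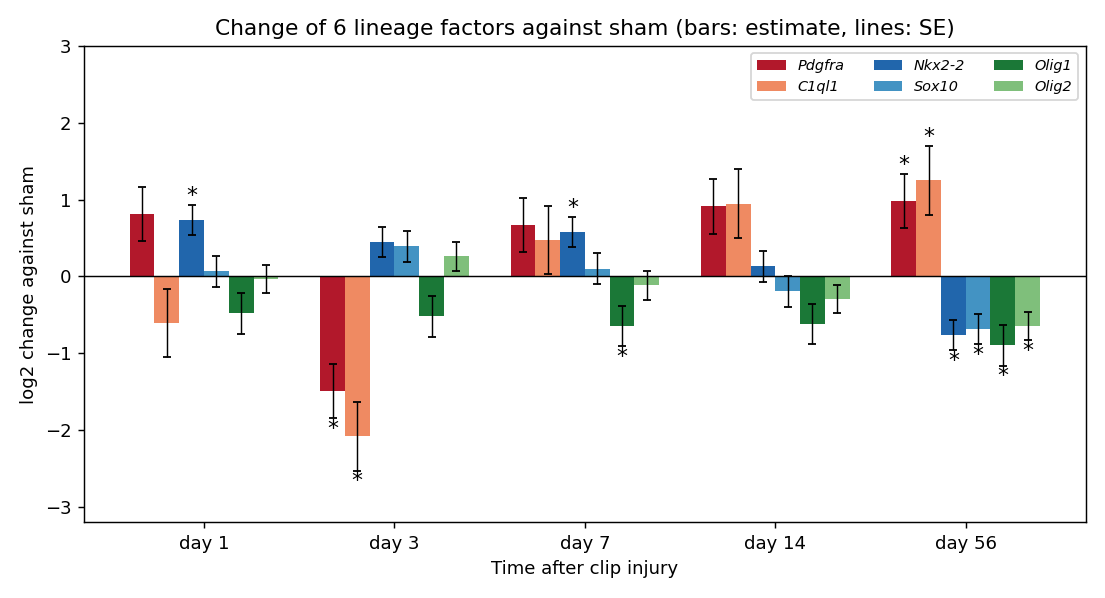
Log2 difference from sham of the 6 measured genes on days 1, 3, 7, 14 and 56, with SE bars from the fit (n = 4 arrays in each group); stars mark an adjusted p under 0.05. On day 56 Pdgfra and C1ql1 are above 0 and the 4 transcription factors below it, all starred.

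Between injured days, Pdgfra and C1ql1 dipped on day 3, Nkx2-2 and Sox10 were lower on day 56 than on days 1 and 7, and Olig1 passed in none of the 6 comparisons made here. From day 1 to day 3, 2 of 6 genes were lower (18.3% of all genes) and from day 3 to day 7 the same 2 were higher (12.8% of all genes). None of the 6 passed between days 7 and 14, where 28% of genes did in 1 direction or the other. None passed between days 14 and 56 either, where 0.338% of genes did. In that order, 1 and 2 of the 6 had an unadjusted p under 0.05 in limma. With the ordinary test on the pooled spread of the groups compared it was 0 and 2. Nkx2-2 between days 14 and 56 had an unadjusted p of 0.000245 in limma. Set against day 7, 2 of 6 were lower on day 56 (Nkx2-2 and Sox10, where 4.78% of genes were lower). Set against day 1, 3 of 6 were lower on day 56 (21.2% of genes) and 1, C1ql1, was higher (11.1% of genes).

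Other genes of the lineage were taken as lists, in all 164 genes besides the 7, of which 148 were measured. To be set beside the list counts, 28.9% of all genes were higher on day 1 and 16.7% lower on day 3. On day 7, 23.5% were higher and 30% lower, and on day 56, 16.1% were higher and 15.9% lower. On day 14, 32.1% passed in 1 direction or the other. The shares lower on day 1, higher on day 3 and in each direction on day 14 are not given here. List counts of those kinds, also of the cell type markers, thus have no such share beside them. Of 12 surface and matrix genes of precursor cells, 3 were higher and 5 lower on day 1. On day 3, 2 were higher and 6 lower, and on day 56, 3 were higher and 1 lower. Among those lower on day 3 were Bcan (-1.89), Cspg5 (-1.66) and Gria3 (-1.65). Cspg4, which encodes the NG2 proteoglycan of precursors and pericytes, was higher than in sham by 1.79, 1.06, 0.98 and 1.60 on days 1, 7, 14 and 56, and unlike Pdgfra it was not lower on day 3 (0.50, not past the threshold). Vcan, the proteoglycan versican, was higher by 2.50, 1.76, 1.80 and 1.33 on days 1 to 14 and differed by 0.39 on day 56, again not past the threshold. Of 11 other transcription factors and chromatin regulators of the lineage, 5 were higher on day 1 and 4 on day 56, and 0 were lower on any day. Hdac1, a histone deacetylase, was higher by 1.08 on day 56, Tcf12, a partner of OLIG factors, by 0.63, Chd7, a chromatin remodeler, by 0.58 and Sox6, a factor of precursors, by 0.54, while Nkx2-2, Sox10, Olig1 and Olig2 were lower on that day.

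Genes of committed and newly formed oligodendrocytes went both ways. Of 14 measured, 6 were higher and 3 lower on day 7, and 4 higher and 6 lower on day 56. Tcf7l2, a transcription factor of newly formed oligodendrocytes that is also present in other cells, rose by 2.40 on day 7, by 1.14 on day 14 and by 1.11 on day 56. It fell by 0.85 on day 3. Rras2, a RAS-related GTPase, was higher on all 5 days, by 3.44 at most on day 7. Zfp488, a zinc-finger partner of OLIG2, fell by 1.25, 2.16, 0.91 and 1.37 on days 1, 3, 14 and 56. From day 3 to day 7, 8 of the 14 were higher and 1 lower.

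The mature myelin genes that passed were lower than in sham on every day, and on days 7 and 14 most did not pass. Of 15 measured, 13, 10, 6, 7 and 11 were lower on days 1, 3, 7, 14 and 56 and 0 were higher. On day 7, 30% of all genes were lower. The median changes were -1.41, -0.87, -0.63, -0.49 and -1.05, against 0.00747, -0.0437, -0.051, 0.0339 and -0.0154 over all genes. Mog, a protein of the outer myelin sheath, fell by 1.45, 0.88, 0.90, 0.78 and 1.07. Thus on day 56 both Nkx2-2 and Sox10 and 11 of the 15 myelin genes were below sham, while on day 1 Nkx2-2 was above sham with 13 of the 15 myelin genes below it.

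Of the ligands of the PDGF receptors, Pdgfa was measured well above background, whereas Pdgfc and Pdgfd had group means of 2.44 to 2.61 and 2.74 to 2.97, the level of the probe sets with no target. Pdgfa, whose product is the main ligand of PDGFRA, rose by 0.47 on day 3 (limma adjusted p = 0.0229) and fell by 0.51 on day 56 (adjusted p = 0.0178), in both cases the opposite of Pdgfra, and did not pass on the other days. Pdgfrb, the receptor of pericytes and fibroblasts and itself on the fibroblast list, rose by 1.36 on day 1 (limma adjusted p = 0.0308) and did not pass later. Of 11 receptors for precursor mitogens, 2 were higher and 3 lower on day 1, and 1 was higher and 1 lower on day 56. Cxcr4, a chemokine receptor of precursors and of leukocytes, was higher by 3.91 on day 1 and 3.80 on day 56. Fgfr2 averaged 10.34 on day 1 and 11.21 in sham. Of 10 mitogens and growth factors, 3 were higher and 2 lower on days 3 and 56, among them Igf1, a survival factor also made by microglia and macrophages, which rose by 2.56 on day 1, fell by 4.26 on day 3, and was higher by 3.05, 2.64 and 2.43 on days 7, 14 and 56. Nrg1, a neuregulin made by neurons, fell on all 5 days, by 5.26 on day 1, where its mean of 3.46 was near background, and by 3.87 on day 56. Like Pdgfra and C1ql1, Igf1 was thus lowest on day 3. Of 15 inhibitors of oligodendrocyte differentiation, 4 were higher and 7 lower on day 3 and 4 higher and 1 lower on day 56. Lingo1 averaged 9.59 on day 3 and 11.01 in sham, and Id4 10.2 on day 3 and 11.9 in sham. Bmp2, a bone morphogenetic protein, averaged 6.76 on day 3 and 2.39 in sham (limma adjusted p = 8e-08), and Sox11, a factor of immature neural cells, 5.87 on day 3 and 2.61 in sham (adjusted p = 4.73e-08). Both sham means lie at the level of the probe sets with no target, so no fold is given. Hes1, a target of Notch with a low sham mean of 3.65, was higher by 1.39 on day 56.

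**Figure D4:**
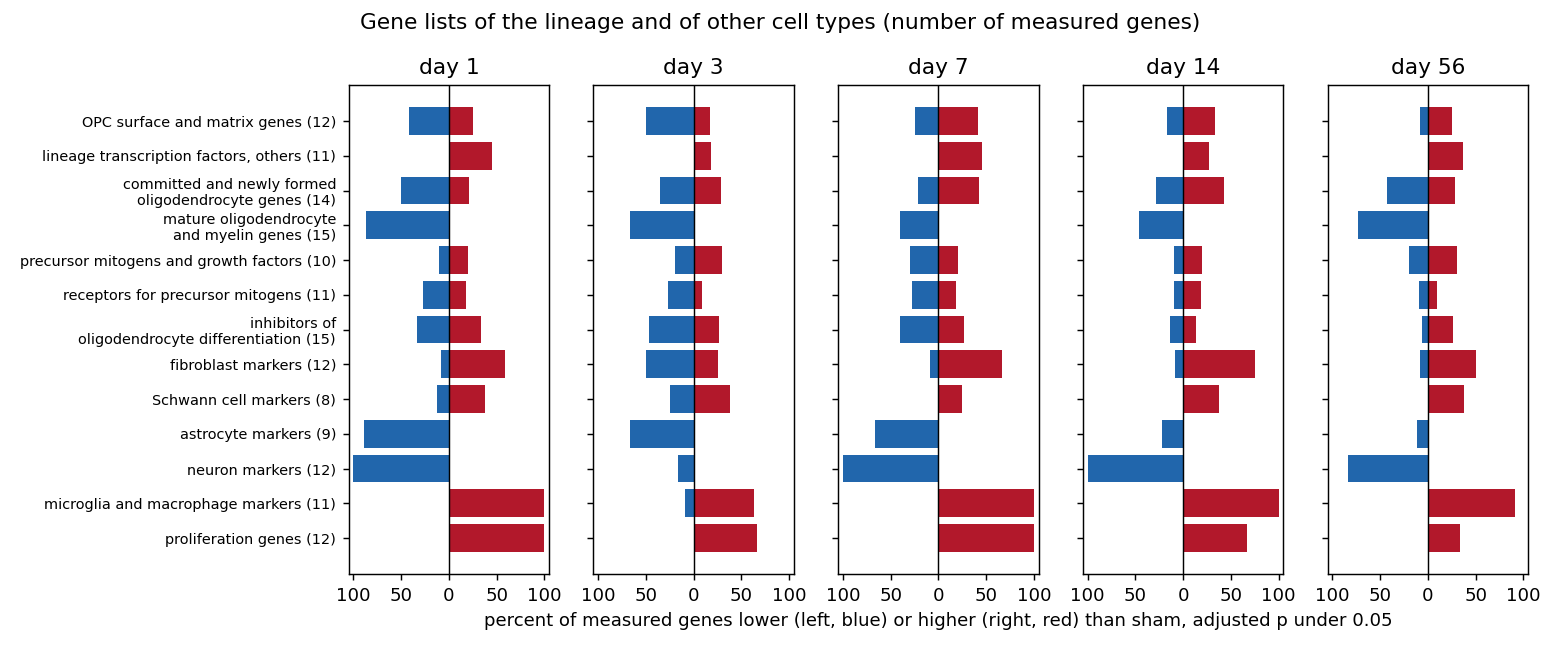
Percent of the measured genes of each list (number in brackets) that were higher (right, red) or lower (left, blue) than in sham at an adjusted p under 0.05, with 1 panel for each day after injury. Of the 15 myelin genes 13 are lower on day 1 and 11 on day 56, and none is higher.

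Markers of microglia and macrophages and proliferation genes differed from sham at every time, while few astrocyte markers did by day 56. The median change of the astrocyte markers on day 56 was -0.083, and 15.9% of all genes were lower on that day. Microglia and macrophage markers were higher in 11, 7, 11, 11 and 10 of 11 on days 1, 3, 7, 14 and 56, and 1 was lower on day 3. Astrocyte markers were lower in 8, 6, 6, 2 and 1 of 9 on the same days. Proliferation genes were higher in 12, 8, 12, 8 and 4 of 12, and 0 were lower. The mean of the 11 microglia and macrophage markers on an array was 11.2 to 11.3 on day 56, against 7.28 to 9.01 in sham, and that of the 12 neuron markers was 8.12 to 9.54 on day 56, against 11.0 to 11.4 in sham. How far such shifts in the make-up of the tissue enter the values of the 6 genes was not tested.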

How the data were processed

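RNA of 24 rat cords was hybridised to Affymetrix rat genome arrays. The deposited values are log2 expression levels per probe set, which the authors computed with GCRMA and affy 1.12.2, pre-processing each time point separately; they were used with no further normalization. Of 31099 probe sets, 20832 carry 1 symbol in the platform annotation, 436 several and 9831 none.

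All probe sets were fitted in 6 groups with limma 3.58.1 in R 4.3.3 (18 residual and 1.08 prior degrees of freedom) after tests on simulated data. Benjamini-Hochberg adjustment took in all probe sets of 1 symbol, separately for each comparison, and adjusted p under 0.05 passed. Each list was described by counts and medians. Named genes were the 7 listed, at most 6 per list by size of change, the PDGF, NG2 and myelin genes, and 3 per gene by correlation, among genes with a mean of at least 5 in 1 group. The members and lists were chosen with earlier results of these data known. Listed genes without a probe set of their own symbol were not analysed here. Promoters came from RefSeq (GRCr8). Depth has no counterpart on arrays, whose number (4 per group) limits the precision. Alternatives were another test, normalization, probe set, filter or set of arrays. The ordinary t-test used only the groups compared and their pooled spread, unlike the limma test named in the methods. Figures used matplotlib 3.10.9.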

Additional observations from a re-analysis of the deposited data

Results flagged for a closer look

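In 3 of the 36 sets of 4 values tested (each of the 6 genes in each group), 1 array lay far from the others by Dixon's ratio, and chance flags about 1 in 20 such sets. Sham replicate 3 had an Olig2 level of 4.02, with 3.70 as the nearest of the other sham arrays. Day 14 replicate 3 had a Pdgfra level of 11.84, with 10.90 as the nearest of its group. Day 7 replicate 2 had a Sox10 level of 10.62, with 11.00 as the nearest.

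For 10 of the 36 differences tested between injured days, the effect of injury against the shared sham arrays differed between 2 days in the limma fit (adjusted p under 0.05). Pdgfra was -2.31 on day 3 against day 1 and 2.16 on day 7 against day 3, and C1ql1 was -1.47 and 2.56 in the same comparisons. For day 56 against day 1, C1ql1 was 1.86, Nkx2-2 -1.50, Sox10 -0.75 and Olig2 -0.61. For day 56 against day 7, Nkx2-2 was -1.34 and Sox10 -0.78. The values of Pdgfra, C1ql1 and the fibroblast markers on day 3 stand side by side in the report, and the part of the day 3 arrays' separate pre-processing was not tested.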

How the results depend on the processing

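The counts of genes past the threshold (of 6) moved most with the test and the arrays fitted. On day 1 against sham 1 passed, and 2 (Pdgfra added) when only the 2 groups were fitted. It was also 2 with an ordinary t-test (both after Benjamini-Hochberg and at an unadjusted p), without dim probe sets or without the day 3 arrays. Leaving out 1 array gave 1 to 2. On day 3, 2 passed, and 0 with the ordinary t-test after Benjamini-Hochberg (Pdgfra 0.0563, C1ql1 0.0605). On day 7, 2 passed, and 1 with only the 2 groups, with that t-test, with quantile normalization, with median centring or without day 7 replicates 2 and 3 and day 14 replicate 3, and 3 without the day 3 arrays (Pdgfra added, 0.0484; Nkx2-2 0.0139, Olig1 0.0459) or with the other Olig2 probe set (0.00478); leaving out 1 array gave 0 to 2, with 0 without day 7 replicate 1 or 4. On day 14, 0 passed, 2 with only the 2 groups, 1 with the t-test after Benjamini-Hochberg, 3 at its unadjusted p, 1 with quantile normalization, 1 without dim probe sets and 2 without the day 3 arrays; leaving out 1 array gave 0 to 2, with 2 without day 3 replicate 2. On day 56, 6 passed, and leaving out 1 array gave 2 to 6. With the ordinary t-test after Benjamini-Hochberg 5 passed (Sox10 lost, 0.0823), as with the other Olig2 probe set (Olig2 lost, 0.831). It was also 5 without dim probe sets (Olig2 not tested) and without the 3 arrays of days 7 and 14 (C1ql1 lost, 0.0578). On day 3 against day 1, 2 passed, 1 with only the 2 groups or either form of the t-test (C1ql1 lost), and 1 to 2 with 1 array left out. On day 7 against day 3, 2 passed and 1 with the t-test after Benjamini-Hochberg. On day 14 against day 7, 0 passed and 1 with the other Olig2 probe set. On day 56 against day 14, 0 passed, 2 with the t-test at an unadjusted p, 1 with quantile normalization (Nkx2-2, 0.0406), and 0 to 1 with 1 array left out (1 without day 3 replicate 3). On day 56 against day 7, 2 passed, 1 with only the 2 groups or quantile normalization, 0 and 4 with the t-test after Benjamini-Hochberg and unadjusted, 3 with the other Olig2 probe set (0.0483), and 1 to 3 with 1 array left out. On day 56 against day 1, 4 passed and 2 with the t-test after Benjamini-Hochberg. Without the day 3 arrays the calls of day 56 against days 1 and 7 were kept, at adjusted p up to 0.0299.

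Differences that turned in sign did not pass the test as reported, and the cause was not tested. With its other probe set, which lies at background, Olig2 differed by 0.00328 on day 1, -0.0547 on day 3 and 0.0281 on day 14 against sham, by -0.0579 on day 3 against day 1, 0.173 on day 14 against day 7 and 0.130 on day 56 against day 7. With median centring Olig1 differed by 0.00153 on day 3 against day 1 and -0.0660 on day 14 against day 7. Without the 3 arrays of days 7 and 14, Olig2 on day 7 differed by 0.0310. These 3 arrays and the day 3 arrays were chosen for leaving out after the data were seen.

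With 1 array left out in turn, these differences turned in at least 1 fit, with the range given: Olig2 on day 1 against sham (-0.139 to 0.0784), Sox10 on day 1 against sham (-0.0484 to 0.188), Olig2 on day 7 against sham (-0.191 to 0.0496), Sox10 on day 7 against sham (-0.0166 to 0.196), Olig1 on day 3 against day 1 (-0.253 to 0.147), Olig1 on day 7 against day 3 (-0.312 to 0.0626), Nkx2-2 on day 7 against day 3 (-0.00861 to 0.326), Pdgfra on day 14 against day 7 (-0.00473 to 0.409), Olig1 on day 14 against day 7 (-0.165 to 0.206), Pdgfra on day 56 against day 14 (-0.104 to 0.320) and Pdgfra on day 56 against day 1 (-0.00909 to 0.313). None of them passed in any of these fits.

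The replicate numbers of the titles did not pair the arrays: deviations of same-numbered arrays correlated at -0.657 to 0.452 (median 0.0041), and of other arrays at -0.523 to 0.591. With replicate number as a block, 4 of 6 passed on day 56, since Pdgfra (0.0606) and C1ql1 (0.0504) missed, and no other of the 6 changed its call against sham. The precision is limited by 4 arrays a group, by background for Olig2, and by the shared sham arrays.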
